A study of Mus musculus with 4 samples.

Results

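Cox4i2, Cd81, Egfl7, Tgm2, Ctla2a, Prdx4, Sh2d1a, Rgs1, Capg and Akr1c12 were taken as a group because earlier results of these data had named them as genes that led the cells of hashtags 7 and 8 in experiment 1 of this single-cell series. They are 10 of the 31053 genes in the files, and all 10 were found in both experiments. The genes were chosen by the level of each gene per hashtag of experiment 1, so those levels are a description and were not tested. The choice set no threshold on the levels. What it did not use are the second experiment, the relation of each gene to Runx1 and to the stage marker Il2ra from cell to cell within a hashtag, and the genes' relatives.

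The cells were mouse progenitors at the first phase of T-cell development (Kit-high and double negative), grown from bone marrow on OP9-Dll1, a stromal line that presents a Notch ligand, with IL-7 and Flt3-ligand at 10 ng/ml each. All mice carried a Bcl2 transgene, whose promoter the labels do not name; the bone marrow for Runx1 overexpression came from B6.Bcl2 transgenic mice aged 8 to 10 weeks, and that for the knockout from B6.Cas9;Bcl2 transgenic mice. Retroviral vectors were given on day 2. The overexpression arm received MSCV-Runx1-mCherry or MSCV-empty-mCherry and was harvested on day 4 or 6; the knockout arm received guide RNAs against Runx1 (E42-gRunx1, marked by human NGFR) together with guides against Runx3 (E42-gRunx3, marked by mTurquoise), with 3 guide pairs per gene, or control guides to luciferase in the same 2 vectors, and was harvested on day 5 or 8. Live, lineage-negative, CD45+ cells carrying the vector markers were sorted, each culture was stained with its own hashtag oligo, and equal cell numbers were pooled. Culture lasted 4 to 5 days in experiment 1 and 4 to 8 days in experiment 2, each with 1 mRNA library and 1 hashtag library. No label ties a hashtag to a vector, a guide or a day. The 8 hashtags of each experiment were therefore described one by one as tags 1 to 8, in the order of the file's columns, and no condition was compared with another. The 8 hashtag sequences were the same in both experiments, but one sequence need not mark the same kind of culture in both.

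Runx1 encodes a DNA-binding factor of the Runt family that early T-cell progenitors need, and Runx3 is its close relative. Progenitors in this system pass from a Kit-high, Il2ra-negative stage to a stage at which Il2ra, the alpha chain of the IL-2 receptor (CD25), appears on the cell. The 10 genes do not belong to 1 pathway. Cd81 encodes a tetraspanin of the cell surface, Sh2d1a the adaptor SAP that links SLAM-family receptors to the kinase Fyn, and Rgs1 a protein that shortens signalling from G-protein-coupled receptors. Cox4i2 encodes an alternative form of subunit 4 of cytochrome c oxidase, the last complex of the mitochondrial respiratory chain, Prdx4 a peroxiredoxin of the secretory pathway, and Akr1c12 an aldo-keto reductase. Capg encodes a gelsolin-family protein that caps actin filaments, Tgm2 a transglutaminase that crosslinks proteins, Egfl7 a secreted protein with EGF-like repeats best known from endothelium, and Ctla2a an inhibitor of cathepsin-type cysteine proteases.

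RefSeq promoter windows on GRCm38.p6, the build family named in the submitters' processing notes, were given for 6 of the 10 genes (9 windows of 250 bases before a transcript start). Cd81 on chromosome 7 and Egfl7 on chromosome 2 are shown because they followed tags 6 and 8 in experiment 2, and Ctla2a and Akr1c12, both on chromosome 13, because they followed tags 7 and 8. Each window ends at the base before the annotated gene. Capitals mark GGGCGG or its complement CCGCCC, the GC box that SP and KLF factors bind.
Cd81 chr7:143052500-143052749 (plus strand): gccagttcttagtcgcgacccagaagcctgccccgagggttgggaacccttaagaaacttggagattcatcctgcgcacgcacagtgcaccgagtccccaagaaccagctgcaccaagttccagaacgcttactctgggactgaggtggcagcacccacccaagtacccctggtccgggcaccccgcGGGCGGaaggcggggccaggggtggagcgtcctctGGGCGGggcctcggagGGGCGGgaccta
Egfl7 chr2:26580833-26581082 (plus strand): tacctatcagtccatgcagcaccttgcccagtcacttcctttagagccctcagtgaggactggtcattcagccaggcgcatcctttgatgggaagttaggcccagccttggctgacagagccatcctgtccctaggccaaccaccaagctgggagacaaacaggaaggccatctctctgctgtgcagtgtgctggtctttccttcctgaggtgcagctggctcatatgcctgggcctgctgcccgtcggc
Ctla2a chr13:60936626-60936875 (minus strand): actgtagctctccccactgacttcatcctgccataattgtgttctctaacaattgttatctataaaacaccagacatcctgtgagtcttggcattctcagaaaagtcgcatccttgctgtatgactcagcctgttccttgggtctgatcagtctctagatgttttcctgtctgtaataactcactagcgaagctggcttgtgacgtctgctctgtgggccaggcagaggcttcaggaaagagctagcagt
Akr1c12 chr13:4279400-4279649 (minus strand): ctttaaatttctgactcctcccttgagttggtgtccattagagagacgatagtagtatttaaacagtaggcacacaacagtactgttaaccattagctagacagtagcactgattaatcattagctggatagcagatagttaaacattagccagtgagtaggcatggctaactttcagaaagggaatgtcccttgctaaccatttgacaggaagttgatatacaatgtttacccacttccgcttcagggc

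GGGCGG stood 3 times in the Cd81 window. It was in 3 of the 9 windows of the group, namely those of Cd81, of Prdx4 and 1 of the 3 windows of Egfl7, and in 32.7% of all 32851 promoter windows. The core Runx motif was searched as TGTGGT or TGCGGT on both strands, that is also as ACCACA or ACCGCA. It was in 0 of the 9 windows and in 18.6% of all windows, so these letters do not stand in these stretches of the 6 genes. Runx factors also bind far from promoters, and no binding data were part of this series.

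The matrices held 9967 barcodes in experiment 1 and 10556 in experiment 2, of which 9332 and 10214 were kept for having 500 or more genes and less than 10% of UMIs from mitochondrial genes. A cell was given its leading hashtag where that had at least 50 counts and at least 3 times the second, which left 535 cells of experiment 1 and 1879 of experiment 2 without a tag. Tags held 691 to 1291 cells and 14502385 to 38067298 UMIs in experiment 1, and 855 to 1312 cells and 22272716 to 42684236 UMIs in experiment 2. The 2 experiments shared 39 barcode sequences. Levels are UMIs summed over the cells of a tag per 1000000 UMIs (CPM) with exact 95% Poisson intervals. These and all other intervals cover counting error only, and with 1 library per experiment nothing checks them against replicates and no p-value is given. In these sums, fewer cells with a transcript and fewer transcripts per cell cannot be told apart. Of the 8 early T-progenitor markers none was at 0, and their summed level ran from 499 to 1176 CPM over the tags of experiment 1 and from 270 to 1530 CPM in experiment 2 (269.6 CPM in its tag 1). Mature T-cell markers summed to 2.81 to 10.5 CPM in experiment 1 and 6.42 to 140.0 CPM in experiment 2.

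In experiment 1 all 10 genes were higher in both tag 7 and tag 8 than in each of the 6 other tags, which is how they were chosen; 17.3% of the 8775 genes that averaged 5 CPM or more had this order. The highest tag was 2-fold or more above the lowest for 9 of them (10.7% of all genes tested); Sh2d1a was not counted, with 3 UMIs in its lowest tag where 10 were required. Cd81 stood at 196 CPM (190 to 202) in tag 7 and 159 in tag 8, against 38.8, 42.1, 13.9, 16.3, 34.4 and 28.7 CPM in tags 1 to 6. Sh2d1a stood at 43.3 CPM in tag 7 and 15.7 in tag 8, against 1.52, 1.69, 0.101, 0.606, 4.40 and 1.52 CPM in tags 1 to 6. Rgs1 stood at 82.0 and 60.5 CPM in tags 7 and 8, against 14.3, 15.2, 9.60, 9.28, 18.0 and 14.6 CPM in tags 1 to 6. The surface receptor and both signalling proteins thus had tag 7 above tag 8, tags 1, 2, 5 and 6 in the middle, and tags 3 and 4 at the bottom, although the middle tags of Rgs1 differed little (14.3 to 18.0 CPM).

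Cox4i2 in experiment 1 stood at 109 and 164 CPM in tags 7 and 8, against 28.3, 29.9, 5.02, 5.77, 25.2 and 41.9 CPM in tags 1 to 6. Prdx4 stood at 109.8 and 82.5 CPM, against 23.9, 23.9, 7.68, 9.15, 23.2 and 17.4 CPM. Akr1c12 stood at 105 and 76.3 CPM, against 18.9, 14.8, 10.0, 7.88, 50.7 and 36.0 CPM. The oxidase subunit led in tag 8, while the peroxiredoxin and the reductase led in tag 7; tags 5 and 6 were well above tags 1 and 2 for Akr1c12 and not for Prdx4. Tag 8 of Akr1c12 was 1.51-fold (1.38 to 1.64) above tag 5, and 3.76-fold above the highest of tags 1 to 6 once cells rich in markers of other cell types were left out. The same step took Sh2d1a from 3.58-fold to 13.4-fold.

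Capg in experiment 1 had the widest step between the 2 leading tags and the rest, with 157 and 106 CPM in tags 7 and 8 against 20.3, 20.4, 15.8, 16.6, 23.2 and 22.3 CPM in tags 1 to 6, a ratio of 4.54 (4.09 to 5.04) between tag 8 and tag 5. Tgm2 stood at 96.8 and 137 CPM, against 38.6, 43.1, 13.1, 14.8, 46.1 and 67.9 CPM. Egfl7 stood at 180.3 and 138 CPM, against 83.1, 85.7, 36.9, 34.2, 52.6 and 51.1 CPM. Of these 3 genes Tgm2 led in tag 8 and the others in tag 7, and tags 1 and 2 came next for Egfl7 but not for Tgm2. Ctla2a stood at 611 and 458 CPM, against 224, 196, 58.5, 58.6, 360 and 266 CPM. Its step from tag 8 to tag 5 was 1.27-fold (1.23 to 1.31), the narrowest of the 10. For 8 of the genes, all except Ctla2a and Tgm2, the lower of tags 7 and 8 was at least 1.5-fold above the highest other tag, as for 1.52% of all genes. Tag 3 was lowest for 7 of the genes and tag 4 for the other 3 (Egfl7, Rgs1 and Akr1c12), and 22.3% of all genes had their lowest tag there. The counting intervals of tags 3 and 4 overlapped for 9 of the 10 genes, Sh2d1a being the exception.

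Runx1 itself stood at 241 and 210.0 CPM in tags 7 and 8 of experiment 1, against 76.9, 79.4, 38.2, 39.3, 96.5 and 85.8 CPM in tags 1 to 6. It had the same 2 leading tags and the same 2 lowest tags as the group. The counts do not separate transcripts of the MSCV-Runx1 vector, or guide-edited transcripts, from the unaltered mouse gene, so no condition was read from them.

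**Figure D1:**
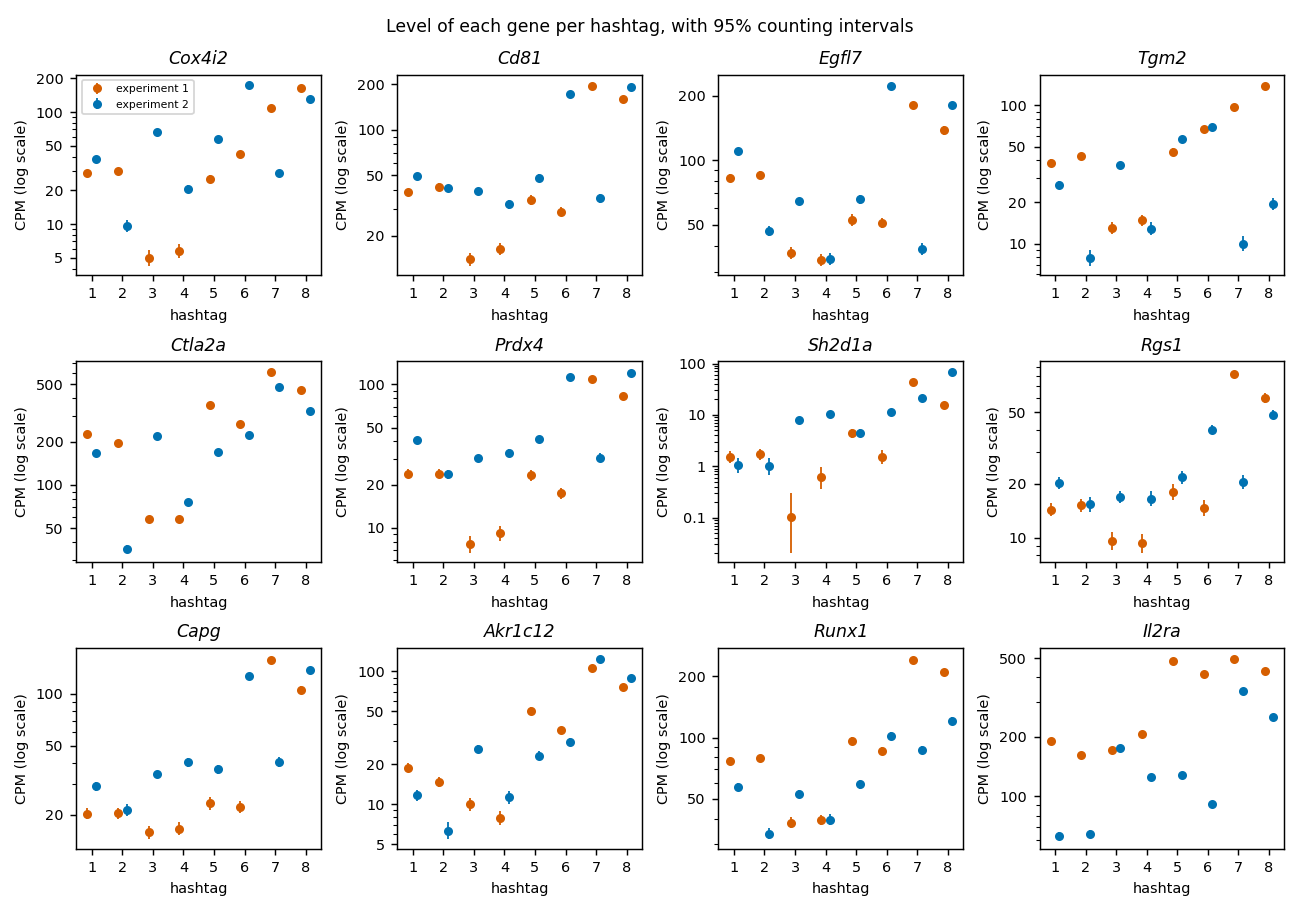
Level of the 10 genes, Runx1 and Il2ra in each hashtag (x axis) as CPM of summed UMIs on a log y axis, experiment 1 in orange and experiment 2 in blue, with exact 95% Poisson intervals as bars. In experiment 1 tags 7 and 8 lead for all 10 genes; in experiment 2 tags 6 and 8 lead for 6 of them, tags 7 and 8 for 3, and tags 6 and 5 for Tgm2.

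Experiment 2, which the choice did not use, gave all 10 genes a ratio of at least 2 between the highest and the lowest tag, against 17.2% of all genes tested. The ratios ran from 3.17 for Rgs1 to 67.9 for Sh2d1a. The group did not keep together, however. Cox4i2, Cd81, Egfl7, Prdx4, Rgs1 and Capg, 6 of the 10, had tags 6 and 8 both above each other tag, an order seen in 6.3% of all genes and looked for after these values were seen. In experiment 1 that order was seen in 2.63% of all genes and in none of the 10. Ctla2a, Akr1c12 and Sh2d1a had tags 7 and 8 above each other tag, an order seen in 5.45% of all genes; for Akr1c12 and Sh2d1a the lower of the 2 tags was at least 1.5-fold above the highest of tags 1 to 6, as for 0.319% of all genes. Tgm2 had tags 6 and 5 on top.

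Among the 6, Cd81 stood at 171 CPM in tag 6 and 193 (187 to 198) in tag 8, against 49.7, 41.0, 39.5, 32.1, 48.0 and 35.2 CPM in tags 1 to 5 and 7. Capg stood at 127 and 138 CPM, against 29.1, 21.4, 34.2, 40.3, 36.7 and 40.2 CPM. Prdx4 stood at 113 and 120.2 CPM, against 40.7, 23.6, 30.6, 33.4, 41.4 and 30.8 CPM. For these 3 genes tags 6 and 8 lay within 1.13-fold of each other and at least 2.72-fold above the next tag. The 6 other tags ran from 32.1 to 49.7 CPM for Cd81, 21.4 to 40.3 for Capg and 23.6 to 41.4 for Prdx4. Cox4i2 stood at 175 and 130 CPM, against 38.2, 9.60, 66.9, 20.5, 57.5 and 28.4 CPM. Egfl7 stood at 222 and 180.5 CPM, against 110.9, 46.6, 64.5, 34.5, 65.7 and 38.7 CPM. Rgs1 stood at 40.0 and 48.6 CPM, against 20.3, 15.3, 16.9, 16.5, 21.7 and 20.6 CPM. Cox4i2 and Egfl7 were thus higher in tag 6 than in tag 8 and were spread over the other tags, with tag 3 next for Cox4i2 and tag 1 next for Egfl7.

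Among the other 4, Ctla2a stood at 476 CPM in tag 7 and 327 in tag 8, against 166, 36.2, 219, 76.1, 170.4 and 222 CPM in tags 1 to 6. Akr1c12 stood at 123 and 89.2 CPM, against 11.7, 6.32, 26.1, 11.3, 23.2 and 29.6 CPM. Sh2d1a stood at 21.1 and 69.5 CPM, against 1.05, 1.02, 7.87, 10.3, 4.51 and 11.3 CPM. Tag 7, where Cd81, Capg and Prdx4 were well under tags 6 and 8, held the highest level of Ctla2a and Akr1c12. Tgm2 stood at 26.7, 7.94, 37.2, 12.8, 57.1, 69.9, 10.0 and 19.4 CPM in tags 1 to 8, so that tags 7 and 8 were both under tag 1. The lowest tag was tag 2 for 8 of the genes and tag 4 for Cd81 and Egfl7, as for 18.4% of all genes. Runx1 in experiment 2 stood at 57.5, 33.7, 52.9, 39.5, 58.8, 102, 86.7 and 121 CPM in tags 1 to 8, and Il2ra at 63.3, 64.3, 176, 126, 129, 91.5, 341 and 251 CPM. Tags 8, 6 and 7 led for Runx1, and tags 7 and 8 led for Il2ra.

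Cells of other types moved with some tags of experiment 2. The 10 granulocyte or monocyte markers summed to 218 CPM in tag 7 and 12048 CPM in tag 6, and the 9 stromal markers to 174 to 908 CPM with the highest sum in tag 2, against 2.18 to 87.7 CPM for the stromal markers in experiment 1. In 213 tagged cells of experiment 2 with at least 0.2% of their UMIs in the stromal markers, Cd81 stood at 314 CPM and Prdx4 at 208 CPM. In 534 cells with at least that share in granulocyte or monocyte markers other than Mpo and Lyz2, Cd81 stood at 56.9 CPM. Capg stood at 57.1 and Cox4i2 at 60.7 CPM in them, all 3 genes well under tag 6 as a whole. The 8 dendritic markers were highest in tags 5 and 6 of experiment 2, which led for Tgm2, at 2627 and 2333 CPM. They summed to 2117 CPM in tag 4, where Tgm2 was low. In 766 cells as rich in these markers other than Bst2, Cd74, Flt3 and Irf8, Tgm2 stood at 89.4 and Rgs1 at 59.5 CPM. How far such cells set the tag levels was not tested. Without cells rich in any of 7 lists of other cell types, the counts of 10, 10 and 6 genes did not change, while the ratio of highest to lowest tag in experiment 2 went from 6.00 to 15.0 for Cd81, from 5.09 to 12.6 for Prdx4 and from 67.9 to 145 for Sh2d1a. The 10 NK or innate lymphoid markers summed to 2282 CPM in tag 7 of experiment 2, the highest, and 324 CPM in tag 6, the lowest. Tag 4 came second at 1978 CPM, and Akr1c12 and Ctla2a were low there. In 1870 tagged cells of experiment 2 rich by the same limit in these markers other than Zbtb16 and Il2rb, Akr1c12 stood at 104 CPM. Ctla2a stood at 318 and Sh2d1a at 33.6 CPM in them. Over all tagged cells the 3 genes stood at 35.8, 204 and 13.5 CPM. In experiment 1 the NK or innate lymphoid markers summed to 646 and 762 CPM in tags 7 and 8. They summed to 674 and 568 CPM in tags 1 and 2, and to 1788.5 to 2069 CPM in tags 3 to 6. In 1957 cells rich in them there, Akr1c12 stood at 65.3, Ctla2a at 269 and Sh2d1a at 8.38 CPM. Over all tagged cells of experiment 1 these genes stood at 33.0, 246 and 6.62 CPM. Without cells rich in any of the lists, the ratio of highest to lowest tag in experiment 2 went from 19.5 to 20.8 for Akr1c12 and from 13.1 to 12.5 for Ctla2a. In experiment 1, Sh2d1a had 0 UMIs in 223 cells rich in granulocyte or monocyte markers, where 3 UMIs would have been 0.367 CPM. The dendritic markers summed there to 351 CPM in tag 7, 1108 CPM in tag 8 and 1325 CPM in tag 6, the highest. Cox4i2 stood at 108 and Tgm2 at 75.6 CPM in 174 cells of experiment 1 rich in dendritic markers.

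Many cells of the leading tags held UMIs of several of the 10 genes. The levels of experiment 1 chose the genes, and genes with high levels are more often found in the same cells. The shares are therefore a description, and no link between the genes is read from them. With every cell thinned at random to 10000 UMIs (573 tagged cells of experiment 1 and 589 of experiment 2 were shallower and left out), 70.1% of the cells of tag 7 and 61.4% of tag 8 of experiment 1 held UMIs of 5 or more of the 10 genes. The other tags held 0.791% to 9.52% such cells. In experiment 2 the share was 49.9% in tag 6 and 54.5% in tag 8, against 0.816% to 9.67% in the others, tag 7 among them with 9.61%. Cells with none of the 10 genes made up 35.6% and 35.5% of tags 3 and 4 of experiment 1 and 28.4% and 26.6% of tags 2 and 4 of experiment 2, and at most 4.76% of any other tag.

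**Figure D2:**
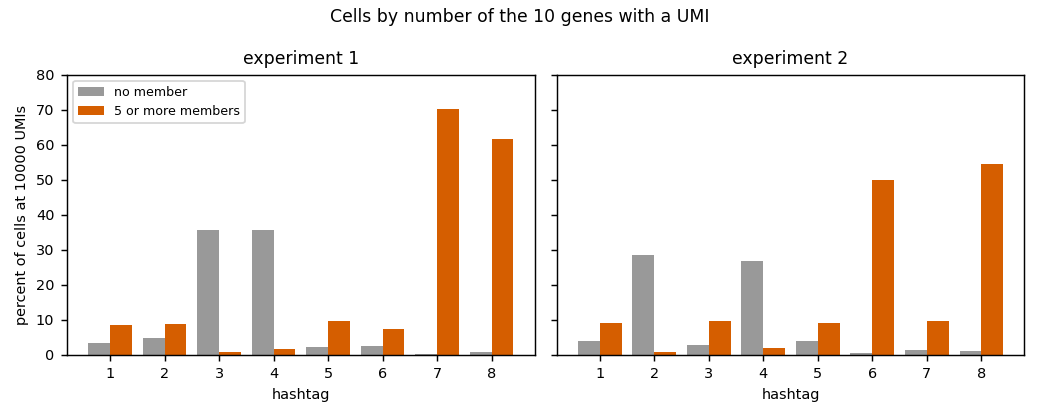
Percent of cells (y axis) in each hashtag (x axis) with UMIs of none of the 10 genes (grey) or of 5 or more (orange), after thinning each cell to 10000 UMIs. Tags 7 and 8 of experiment 1 and tags 6 and 8 of experiment 2 have 49.9% to 70.1% of cells with 5 or more, and every other tag at most 9.67%.

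For Cd81 and Capg, a higher level in a tag came with both more cells holding the transcript and more UMIs in each such cell. Both measures tend to rise with the mean count, so they are not separate results. Cd81 was found in 77.0% and 68.5% of the thinned cells of tags 7 and 8 of experiment 1, against 10.4% to 27.8% in the other tags, with 2.59 and 2.36 UMIs per positive cell against 1.34 to 1.62. Capg was found in 62.5% and 52.8% of them, against 14.6% to 19.3%, with 2.83 and 2.26 UMIs per positive cell against 1.08 to 1.26. In tags 6 and 8 of experiment 2 Capg was found in 54.7% and 53.7% of cells, against 17.4% to 32.0%. This did not hold for every gene. Tgm2 was found in 36.7% of the cells of tag 7 of experiment 1, under the highest other tag (39.9%), and Egfl7 in 52.3% of tag 8 of experiment 2, under 55.5% in another tag. Sh2d1a had 2.39 and 1.81 UMIs per positive cell in tags 7 and 8 of experiment 1, with up to 3.17 in the others. Without thinning, Sh2d1a was found in only 22.3% of the cells of tag 7 of experiment 1 and 31.0% of tag 8 of experiment 2, and in tags with few UMIs a handful of cells carried most of it: in tag 2 of experiment 1, 5 cells held 90.3% of its 62 UMIs.

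The relation to Runx1 was read from cell to cell within each tag, as the level in cells with 2 or more Runx1 UMIs over that in cells with none, after thinning to 10000 UMIs. A cell without a Runx1 UMI at this depth need not lack Runx1 transcripts. The median over tags ran from 0.987 for Cox4i2 to 1.71 for Akr1c12 in experiment 1, and only Cox4i2 was under 1. Over the 10 genes its median was 1.18, beside 1.01 over all genes tested. Akr1c12 alone passed 1.5, and was above 1 in 8 of 8 tags, while 0.843% of all genes passed. Ctla2a, with a median of 1.37, was also above 1 in 8 of 8 tags. In experiment 2 Akr1c12 (1.70, above 1 in 7 of 8 tags) and Sh2d1a (1.63, above 1 in 5 of 6 tags with enough UMIs) passed, beside 3.76% of all genes, and the median over the 10 genes was 1.24. None of the 10 was 1.5-fold lower in either experiment (0.399% and 1.21% of all genes). In experiment 2, Tgm2 at 0.490 and Cox4i2 at 0.608 were so after thinning to 5000 UMIs, and Rgs1 at 0.573 without thinning. These counts moved between 0 and 3 with the settings given in the closing section, and within cells with an Il2ra UMI none of the 10 passed in either experiment. Il2ra itself was 1.49-fold and 1.51-fold higher in the cells with Runx1 UMIs.

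In tags 7 and 8 of experiment 1, where Runx1 was high, some of the genes had larger ratios than in other tags. These tags and genes were singled out after their values were seen. Runx1 stood at 246 and 213 CPM in the thinned cells of tags 7 and 8, and at most at 96.5 CPM in tags 1 to 6. With fewer Runx1 UMIs per cell, the bins separate cells less well by Runx1 level. Ratios and correlations with Runx1 are therefore not comparable between tags that differ in Runx1 level. Whether the genes followed Runx1 more closely in tags 7 and 8 was not tested. Capg stood at 118 CPM in the 193 cells of tag 7 without a Runx1 UMI and at 212 CPM in the 558 cells with 2 or more, a ratio of 1.80 (1.56 to 2.09). In tag 8 its ratio was 2.02 (1.64 to 2.49), between 149 and 329 cells, and in tags 1 to 6 it lay between 0.708 and 1.34. Rgs1 had ratios of 2.18 (1.77 to 2.71) and 1.66 (1.27 to 2.20) in tags 7 and 8, against 0.728 to 1.52 in the others. Cox4i2 showed no such ratio in these tags, with 0.979 and 0.995, and Egfl7 had 0.797 and 1.02. Across single cells, the rank correlation (Spearman's rho) of Runx1 UMIs with Capg was 0.259 over 986 cells of tag 7 and 0.286 over 625 cells of tag 8, and with Cox4i2 it was -0.0677 and -0.0208. In tags 6 and 8 of experiment 2 the ratio of Capg was 1.23 and 1.32 and that of Rgs1 was 1.30 and 0.958.

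Cells without Runx1 UMIs in the leading tags were also set beside cells with 2 or more in the other tags. In experiment 1, cells of tags 7 and 8 without a Runx1 UMI had a higher level than cells with 2 or more Runx1 UMIs in each other tag for 7 of the 10 genes, beside 6.11% of all genes. The order of these tags is the one the genes were chosen for, so nothing is read from this count. For Cox4i2 the cells of tag 7 without a Runx1 UMI stood at 106 CPM, against 33.6 CPM in the cells with 2 or more in tag 6, the highest of the others (ratio 3.16, 2.43 to 4.15). The 3 genes for which this did not hold were Ctla2a, Akr1c12 and Sh2d1a. For 6 of the 7 genes the interval lay above 1, the exception being Tgm2 at 1.17 (0.942 to 1.46). In experiment 2 the same order held for 6 of the 10 genes in tags 6 and 8, which were picked after their values were seen (3.69% of all genes). For 5 of these 6 the interval lay above 1, the exception being Rgs1 at 1.35 (0.939 to 1.98). In tags 7 and 8 of experiment 2 it held for 1 of the 10 (2.57% of all genes), Akr1c12, at 1.11 (0.897 to 1.37). In the comparison of tags 6 and 8, Capg stood at 135 CPM in the cells of tag 8 without a Runx1 UMI. It stood at 51.6 CPM in the cells with 2 or more in tag 7. In tags 2 and 4 of experiment 2, where the bins of 2 or more Runx1 UMIs held 52 and 54 cells, Cd81 had ratios of 4.80 and 5.81 and Prdx4 of 3.48 and 3.27. Over all tags of experiment 2, leaving out cells rich in markers of other types moved the median ratio of Cd81 from 1.36 to 1.003.

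**Figure D3:**
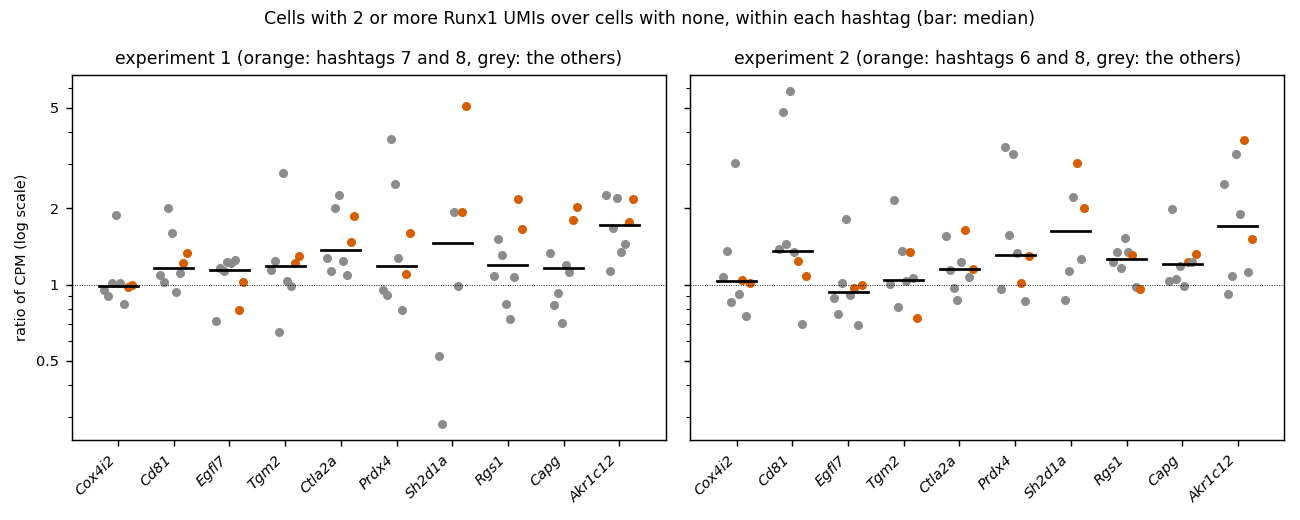
Ratio of the CPM of each gene in cells with 2 or more Runx1 UMIs to that in cells with none (log y axis), 1 point per hashtag, after thinning each cell to 10000 UMIs; bars are medians over hashtags, and points with fewer than 10 UMIs in both bins together or a bin at 0 are not drawn. Medians in experiment 1 run from 0.987 for Cox4i2 to 1.71 for Akr1c12. Akr1c12 and Ctla2a are above 1 in 8 of 8 tags of experiment 1, and Capg and Rgs1 stand highest there in tags 7 and 8.

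The stage marker Il2ra divided the group in 2 directions. Comparing cells with an Il2ra UMI to cells with none within each tag, Akr1c12 was 6.35-fold higher in experiment 1 and 8.91-fold in experiment 2 (median over tags, above 1 in 8 of 8 tags in both). Sh2d1a was 10.2-fold and 8.39-fold higher, and Ctla2a 1.96-fold and 2.46-fold. These 3 genes passed 1.5-fold in both experiments, beside 3.44% and 4.04% of all genes. Over all cells of a tag, they are the 3 with tags 7 and 8 on top in experiment 2, the tags with the most Il2ra there. Within cells with an Il2ra UMI only Akr1c12 kept that order. Egfl7 was lower in cells with Il2ra, at 0.55 of the level in experiment 1 and 0.598 in experiment 2. Cox4i2 was at 0.676 and 0.587 and Tgm2 at 0.897 and 0.528. One gene of the 10 was thus at least 1.5-fold lower in experiment 1 (3.07% of all genes) and 3 were in experiment 2 (7.71%). Without cells rich in markers of other types, Cox4i2 and Tgm2 in experiment 2 moved to 0.824 and 0.787 and Egfl7 from 0.598 to 0.55. The same step took Akr1c12 to 3.97 and 5.10 in the 2 experiments and Sh2d1a to 4.90 in experiment 2. Sh2d1a was also at 6.77 in experiment 1 without tag 2 and at 15.0 in experiment 2 without thinning. Cd81, Prdx4 and Capg lay between 0.740 and 1.31 in both experiments. Tcf7, a Notch-induced factor of the T lineage given for comparison, was 3.09-fold and 3.65-fold higher.

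Within some of the leading tags the same contrast was wider for some genes. The tags and genes given here were picked after their values were seen. In tag 7 of experiment 1 Egfl7 was at 0.320 and Cox4i2 at 0.481 in cells with Il2ra relative to cells without, and in tag 8 of experiment 2 at 0.234 and 0.306. Rgs1 was 2.28-fold and 1.94-fold higher in the cells with Il2ra of tags 7 and 8 of experiment 1, against 0.639 to 1.23 in the other tags. The order of tags was also read within each class of cells. In experiment 1, where the genes were chosen for this order, all 10 had tags 7 and 8 above each other tag in cells without an Il2ra UMI (10.3% of all genes) and in cells with one (15.3%). In experiment 2, tags 6 and 8 were above each other tag for 5 of the 10 genes in cells without an Il2ra UMI (5.49% of all genes) and for 7 in cells with one (8.76%). Tags 7 and 8 were above each other tag for 4 (4.01%) and for 1 (3.61%). The 4 in cells without an Il2ra UMI were Ctla2a, Sh2d1a, Rgs1 and Akr1c12. In cells with one, the lower of tags 7 and 8 over the highest other tag was 1.19 for Akr1c12. It was 0.720 for Ctla2a and 0.496 for Sh2d1a. Sh2d1a had tags 6 and 8 on top in those cells, at 2.02. For Capg, the lower of tags 6 and 8 over the highest other tag was 2.63 in cells without and 3.61 in cells with Il2ra. The lower of tags 7 and 8 over the highest other tag was 0.381 and 0.146 for Capg.

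**Figure D4:**
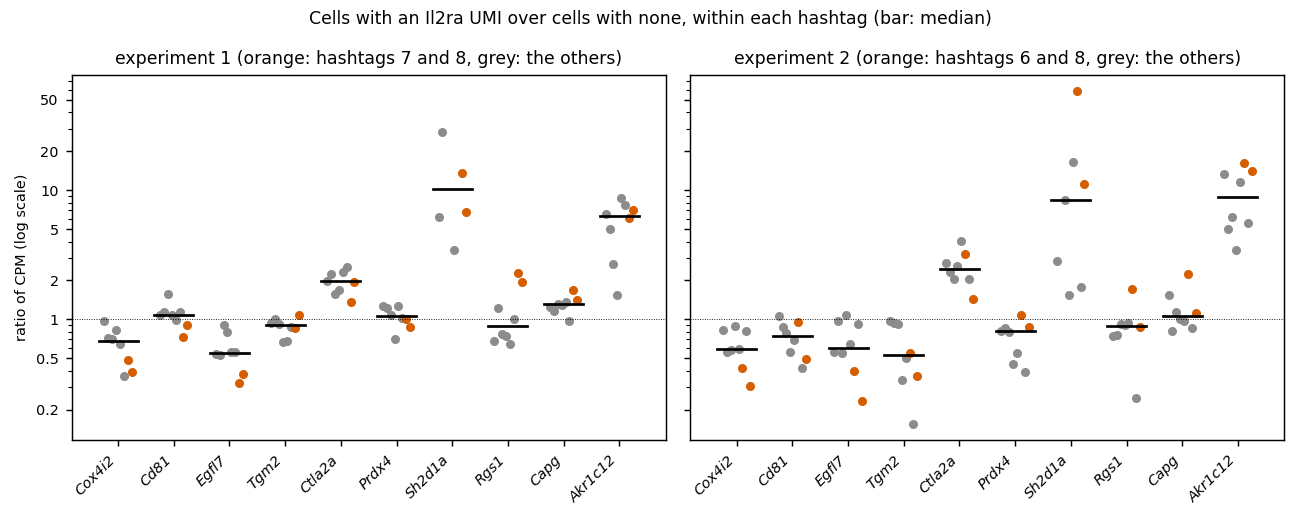
Ratio of the CPM of each gene in cells with an Il2ra UMI to that in cells with none (log y axis), 1 point per hashtag, after thinning each cell to 10000 UMIs; bars are medians over hashtags, and points with fewer than 10 UMIs in both bins together or a bin at 0 are not drawn. Ctla2a, Sh2d1a and Akr1c12 lie above 1 and Egfl7 and Cox4i2 mostly below 1 in both experiments.

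Between single cells of 1 tag the 10 genes moved together only weakly. The median rank correlation over the 45 pairs lay between -0.0246 and 0.0914 in the 16 tags of both experiments. The pairs given here were named after their values were seen. Cox4i2 and Egfl7 had a rho of 0.288 and 0.296 in tags 7 and 8 of experiment 1 and of 0.473 and 0.521 in tags 6 and 8 of experiment 2 (868 and 791 cells), and at most 0.130 in the other tags. Ctla2a and Akr1c12 had a rho of 0.0920 to 0.356 in all 16 tags. Other pairs reached similar values: in tag 8 of experiment 2 Cd81 with Egfl7 had 0.432, Cox4i2 with Cd81 0.402 and Sh2d1a with Akr1c12 0.317. The lowest values there and in tag 8 of experiment 1 were -0.284 for Egfl7 with Sh2d1a and -0.238 for Cox4i2 with Akr1c12. All cells of a tag share a library, and low counts hold such values near 0.

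The families of the 10 genes were read from a list of 72 relatives, of which 71 were found and 51 had a mean of at least 5 CPM in experiment 1. Tags 7 and 8 were both above the rest for 19 of these 51, beside 17.3% of all genes. Cox4i1, the common form of subunit 4, was flat where Cox4i2 was not, with 814 to 928 CPM over the tags of experiment 1 and 842 to 1042 CPM in experiment 2. Of 14 oxidase subunits at 5 CPM or more only Cox7a2l, at 1.06-fold, had tags 7 and 8 on top. Among 5 other peroxiredoxins only Prdx5 did, at 1.003-fold, and none had a 2-fold range in either experiment.

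The relatives of Cd81 and Sh2d1a showed more of the pattern. Of 12 tetraspanins 6 had tags 7 and 8 of experiment 1 on top: Cd9, Cd37, Cd53, Tspan13, Tspan14 and Tspan32. Tspan32 stood at 90.8 and 78.8 CPM in tags 7 and 8 against at most 38.6 CPM in the others, and in experiment 2 at 57.7 and 68.7 CPM in tags 6 and 8 against at most 35.4 CPM. Cd63 and Cd82 had their highest levels in tags 3 and 4 of experiment 1. Cd63 stood at 134 and 138 CPM there, at 30.4 and 35.3 CPM in tags 1 and 2 and at 78.1 and 69.3 CPM in tags 7 and 8. Of 5 SLAM receptors and SAP partners at 5 CPM or more, Ly9, Cd84, Cd48 and Fyn had tags 7 and 8 of experiment 1 on top, and Sh2d1b1, which encodes a SAP-like adaptor, had its lowest levels there (3.51 and 3.38 CPM against 7.04 to 11.3 CPM). Rgs2 and Rgs14 had tags 7 and 8 at least 1.59-fold above the rest, and Rgs18 and Rgs19 had them 1.10-fold and 1.09-fold above. Gsn, the gelsolin gene, stood at 195 and 185 CPM in tags 3 and 4 of experiment 1 against 6.83 to 16.3 CPM elsewhere, and at 328 and 191 CPM in tags 2 and 4 of experiment 2. Akr1c13 followed Akr1c12 (222 and 189 CPM in tags 7 and 8 of experiment 1, 326 and 198 CPM in those of experiment 2), and Ctla2b followed Ctla2a at 4.28 CPM or less in experiment 1. Both pairs are close copies, and how reads were divided between them is not given in the sources used here, so the levels of Akr1c12 and Ctla2a are uncertain to that extent.

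Genes with the most similar course over the 8 tags of experiment 1 were sought by Pearson's r of log2 CPM with the mean course of the group, as a description over 8 tags that share a library. The 10 nearest were Triobp, Ly9, Runx1, Pde4b, Rpl39, Dip2b, Txn1, Eva1b, Tcf7l2 and Hmox2, with r from 0.993 to 0.9997. Runx1 was the third, with r = 0.998. Their ranges differed: Ly9 had 8.79-fold and Eva1b 9.89-fold between highest and lowest tag, and the ribosomal protein gene Rpl39 1.15-fold. In experiment 2 tags 8 and 6 were the 2 highest for 8 of them, but not for Rpl39 and Tcf7l2; Txn1, which encodes thioredoxin, stood at 1482 and 1592 CPM in tags 6 and 8 against 675 to 1026 CPM.

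Over all tagged cells, 9 of the 10 genes differed by less than 2-fold between the libraries. Sh2d1a differed by 2-fold, at 6.62 CPM in experiment 1 and 13.5 CPM in experiment 2 (2.04-fold, 1.92 to 2.17), beside 1.01% of all genes. It was 1.69-fold without cells rich in markers of other types and 1.77-fold after thinning. Prdx4 was 1.63-fold and Cox4i2 1.57-fold higher in experiment 2, and Tgm2 was at 0.631 of its level in experiment 1. Library, days of culture and the mix of cultures cannot be told apart in this comparison.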

How the data were processed

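Single-cell mRNA and hashtag libraries of 2 pooled experiments were used (4 deposited samples). The mRNA matrices hold raw UMI counts, which the authors deposited unnormalized, for each gene in each cell; per the submitters' processing notes Cell Ranger 3.0.0 and the builds mm10 and GRCm38 were used, and the chemistry was 10x Chromium version 3, per the labels' protocols. The hashtag tables hold raw counts per cell as the authors deposited them; whether these are molecules or reads is not given in the sources used here, nor is how barcodes were chosen. Symbols came from the files.

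UMIs of tagged cells were summed per hashtag and scaled to CPM with Python 3.11.15 (numpy 2.4.6, scipy 1.17.1, pandas 2.3.3). Depths ranged from 14502385 to 42684236 UMIs per hashtag. Intervals are exact Poisson for levels and exact conditional for ratios, at 95%. Ratios needed at least 10 UMIs in the lowest hashtag or in both bins together; bins needed at least 50 cells. Shares of all genes were taken over genes that averaged 5 CPM or more, and every share printed beside a count follows the same rule as that count. No test between hashtags or conditions was run (Dixon's limit only pointed out values of experiment 2), since each experiment has 1 library and its hashtags have no stated condition, which leaves no replicates. Doublets were removed only through the rule on the second hashtag. Free RNA was not corrected.

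The members, families and marker lists were chosen with earlier results of these data known. Marker sums used the full lists. Cells rich in other types' markers were found without genes that early progenitors also hold at high level. These were Mpo, Lyz2, Gzmb, Cpa3, Bst2, Cd74, Flt3, Irf8, Zbtb16 and Il2rb. The text names the 10 members, Runx1, their listed relatives, stage markers, and the 10 genes with the closest course in experiment 1 among genes that averaged 5 CPM or more. Alternatives were other hashtag calls and cell filters, cells of other types or the 5 richest barcodes left out, TMM (edgeR 4.0.16) or DESeq2 1.42.0 size factors on the deposited counts, means over cells, thinning, other bins, and leaving out each hashtag. The scripts were tested on simulated data.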

Additional observations from a re-analysis of the deposited data

Results flagged for a closer look

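Sh2d1a had 1 hashtag far from the other 7 in experiment 2: tag 8 at 69.5 CPM, with the next at 21.1 CPM. The gap to the nearest value passed Dixon's 95% limit for 8 values, used here only to point out a value. The limit was applied to 11 sets of values (the 10 genes and Runx1 in experiment 2), and it is meant for independent samples, where chance passes it in about 5 of every 100; the 8 hashtags share 1 library.

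Cells that passed the filter but received no hashtag are in no comparison. Their summed level of the 10 genes was 597 CPM (587 to 606) in 535 cells of experiment 1 and 753 CPM (746 to 759.5) in 1879 cells of experiment 2, within the range of the hashtags (171 to 1690 CPM and 209 to 1315 CPM). In 496 and 903 of these cells a second hashtag had at least 50 counts.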

How the results depend on the processing

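The 10 genes with tags 7 and 8 on top in experiment 1, the 10 with a 2-fold range in experiment 2, and the 3 higher in cells with Il2ra in each experiment kept those counts under every alternative run; the 6 with tags 6 and 8 on top in experiment 2 kept theirs too, except for 7 without tag 6 or tag 8 and 9 without tag 7. No value past a limit changed direction. The ratios of highest to lowest tag cannot fall under 1, so for them this could not have happened. The Runx1 ratio of Sh2d1a in experiment 1, 1.46, ran from 0.769 without thinning to 6.36 without cells of other types. Without tags 7 or 8 in turn the first count compares the remaining one. The other counts were less stable, and the cause was not tested. Genes 2-fold apart between experiments (1 of 10) became 0 with stricter hashtag calls (at least 100 counts and 10 times the second), without cells rich in markers of other types, as means over cells and after thinning, and 0 to 3 when 1 tag was left out (3 without tag 7 of experiment 1). Genes 1.5-fold higher with Runx1 UMIs in experiment 1 (1) became 0 with stricter cells (at least 1000 genes and under 5% mitochondrial UMIs), without thinning and within cells with Il2ra, 2 without cells of other types and at 5000 UMIs, 3 with 3 or more Runx1 UMIs, and up to 2 when tag 1, 2 or 6 was left out. In experiment 2 (2) they became 0 without the 5 richest barcodes and within cells with Il2ra, 1 at 5000 UMIs and without thinning, and 1 when tag 5, 6 or 8 was left out. Genes lower with Il2ra in experiment 1 (1) became 2 with stricter hashtag calls, with stricter cells, without the 5 richest barcodes and at 5000 UMIs, and 2 when tag 1, 2, 3 or 4 was left out; in experiment 2 (3) they became 1 without cells of other types and 5 at 5000 UMIs. Bins of 3 or more Runx1 UMIs left 6 and 3 tags with enough cells, and cells with Il2ra 7 and 4. The share of all genes with a 2-fold range moved from 10.7% to 18.5% at a minimum of 1 CPM and 6.47% at 20 CPM in experiment 1, and from 17.2% to 26.6% and 11.2% in experiment 2. No paired analysis was possible because the labels tie no hashtag to a culture or replicate.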
